A study of Mus musculus with 21 samples.

Results

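Chronically injured, unresected liver of Mdr2-/- mice was compared with control liver that was regenerating 6 days after a 30% partial hepatectomy. Of 21 arrays in the series, 9 belonged to this comparison by their labels, the 6 titled KO day 0 and the 3 titled control day 6. Each was also set against the 3 arrays titled control day 0, the unresected control liver. KO day 0 arrays came from male Mdr2-/- mice of strain FVB129P2 (mice 250, 254, 258, 312, 332 and 337), from the lobe removed at surgery. Control day 6 arrays came from male control mice of strain FVB129P2/FVBNJ (mice 303, 392 and 393) after the operation, and control day 0 arrays from the removed lobes of control mice 263, 265 and 303. All mice were 9 months old. Mouse 303 was sampled on both days, and otherwise the 3 groups shared no animal. Genotype and strain background cannot be told apart in these groups. KO day 0 and control day 6 differed in genotype and in surgery at once, so a difference between them belongs to neither alone, and the shared control day 0 values are given beside it. Total RNA was hybridised to 1 Affymetrix mouse array per liver sample, and values are deposited log2 signals.

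Mdr2, the product of the mouse gene Abcb4, moves phospholipid into bile. Without it bile acids are not buffered by phospholipid and injure bile ducts and hepatocytes, and the liver goes through lasting inflammation, scarring, hepatocyte death and replacement, with tumours later in life. After partial hepatectomy, by contrast, otherwise healthy hepatocytes can leave quiescence, copy their DNA, divide and restore liver mass, while the tissue keeps working. How many do so after a 30% resection was not measured here. Both livers may therefore contain dividing cells, and the comparison asks how far the RNA profile of chronic turnover resembles that of regeneration.

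Abcb4 itself followed the labels. Its signal lay between 7.59 and 8.96 with a median of 8.08 in KO day 0 livers, was 10.2, 10.08 and 10.16 in control day 6 livers (mice 303, 392 and 393), and was 9.68, 10.18 and 9.51 in control day 0 livers (mice 263, 265 and 303). No KO liver reached any control liver, and the difference was −1.94 ± 0.29 (log2 units, SE) from control day 6 (adjusted p = 0.000439). Alb, the gene of albumin and a defining hepatocyte marker, was high in every liver, between 14.96 and 15.12 in KO day 0, 14.74 to 15.12 in control day 6 and 14.93 to 15.07 in control day 0. The difference between 3' and 5' probe sets of Gapdh, which grows as RNA shortens, was 2.03 in KO day 0 mouse 337, 0.94 in control day 6 mouse 303 and −0.20 to 0.17 on the other 10 arrays. Array medians of the 12 livers lay between 3.83 and 4.04.

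Of 7320 genes tested, 257 differed between KO day 0 and control day 6 (3.51%, limma adjusted p under 0.05), 156 of them higher (2.13%) and 101 lower (1.38%) in KO day 0. KO day 0 differed from control day 0 in 707 genes (9.66%), 497 higher (6.79%) and 210 lower (2.87%). Control day 6 differed from control day 0 in 209 genes (2.86%), 155 higher (2.12%) and 54 lower (0.738%). The last 2 comparisons share the control day 0 arrays, so their values are given side by side and were not correlated. Group sizes also differ, 6 against 3 in the first 2 comparisons and 3 against 3 in the last, which bears on how many genes each can call. Centring each array on its median instead gave 144 higher and 145 lower genes for KO day 0 against control day 6, and 381 higher and 337 lower for KO day 0 against control day 0. Counts also moved with single arrays: without control day 6 mouse 392 the first comparison held 146 genes and the last 55, and without control day 0 mouse 265 the second held 357 and the last 54.

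By distance, the 2 altered livers were about as far from each other as each was from unresected control liver. The median absolute difference of group means over the tested genes was 0.2333 log2 units between KO day 0 and control day 6, 0.265 between KO day 0 and control day 0, and 0.2733 between control day 6 and control day 0. A group mean differed at least 2-fold (a log2 difference of 1) in 508 genes between KO day 0 and control day 6 (6.94%), in 753 between KO day 0 and control day 0 (10.29%) and in 666 between control day 6 and control day 0 (9.098%). Mean correlations between arrays of different groups were 0.9337, 0.9336 and 0.9376 for the same pairs, below the mean within KO day 0 (0.9667), within control day 6 (0.9457) and within control day 0 (0.9799). The correlations are across genes of the same arrays and are a description. Without control day 6 mouse 303 the first distance was 0.2717, so the order of the 3 distances rests on single arrays. Means of 6 and of 3 arrays carry different noise, so the 3 distances are not on the same footing.

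**Figure D1:**
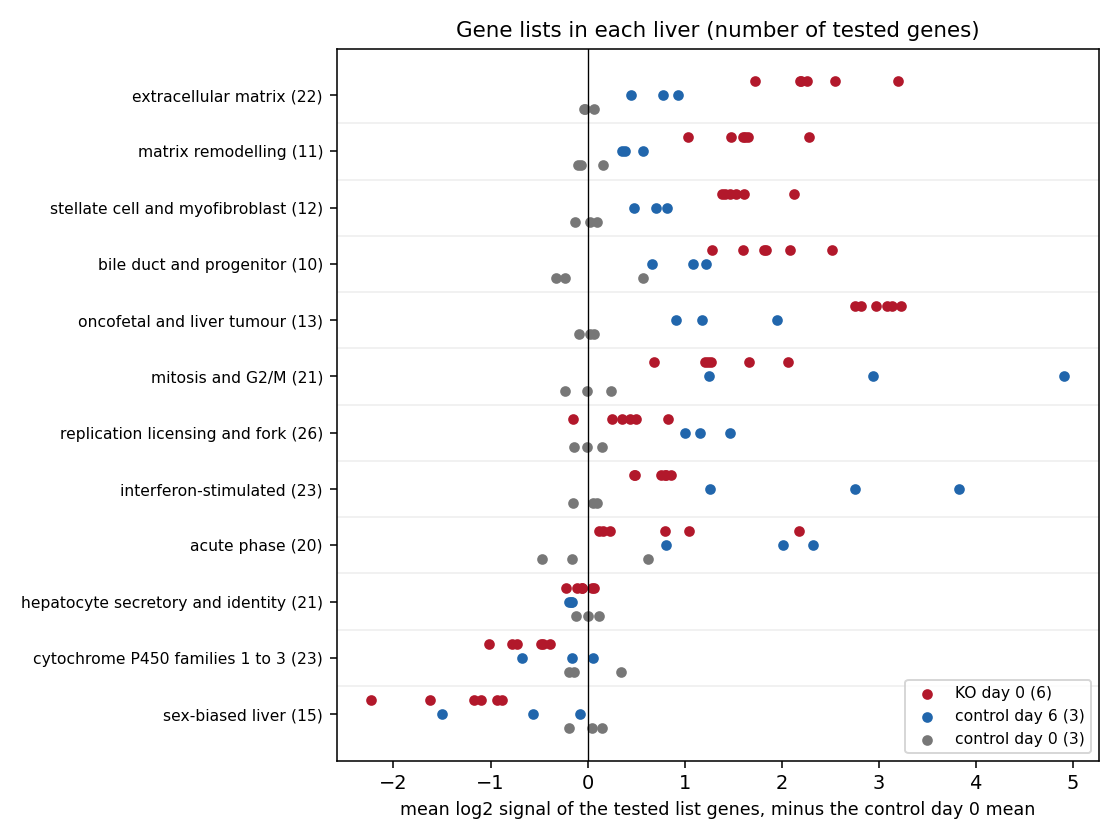
Mean log2 signal of the tested genes of selected lists in each liver, minus the control day 0 mean. Each point is 1 mouse, and within a list the rows of points from the top are KO day 0, control day 6 and control day 0. Matrix and tumour-associated lists stand highest in KO day 0 livers, and replication and interferon lists stand highest in control day 6 livers. For mitosis 2 control day 6 livers stand highest, and mouse 303 (1.252) lies below KO day 0 mice 332 (2.068), 312 (1.659) and 254 (1.275).

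DNA replication genes were lower in chronically injured than in regenerating liver. Of 33 listed genes of replication licensing and the replication fork, 32 were on the array and 26 had enough signal to be tested. None was called higher and 7 were called lower in KO day 0 than in control day 6 (Fen1, Gins1, Lig1, Mcm2, Mcm5, Mcm7 and Rfc5), against 1.38% of all tested genes called lower. The median difference of the 26 was −0.662, against 0.017 for all tested genes. Against control day 0, 3 were higher and 1 lower in KO day 0 livers (median 0.287), and 9 were higher and none lower in control day 6 livers (median 1.077). Of all tested genes 6.79% were higher and 2.87% lower in KO day 0, and 2.12% higher and 0.738% lower in control day 6. Single arrays moved these counts: the 7 became 3 without KO day 0 mouse 312 and 4 without control day 6 mouse 303 or 392, the 3 became 1 without control day 0 mouse 263 or 303, and the 9 became 5 without control day 0 mouse 265.

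Mcm5 and Mcm7 encode subunits of the helicase that is loaded at replication origins and unwinds DNA. Mcm5 lay between 2.67 and 3.87 (median 3.095) in KO day 0 livers, was 6.44, 5.02 and 4.95 in control day 6 mice 303, 392 and 393, and was 2.35, 2.36 and 2.55 in control day 0 mice 263, 265 and 303. Regenerating livers stood apart from both other groups, which were at or under log2 4 on every array. Such values are near background, and a difference measured against them is given as at least that large. Mcm5 fell by at least 2.24 ± 0.31 in KO day 0 livers relative to control day 6 (adjusted p = 0.000242). Mcm7 lay between 7.2 and 8.03 (median 7.4) in KO day 0 livers, against 9.13, 8.34 and 8.87 in control day 6 and 6.78, 6.73 and 6.85 in control day 0. KO day 0 livers thus lay between the other groups without overlapping either, 1.28 ± 0.22 below control day 6 (adjusted p = 0.00183) and 0.71 ± 0.22 above control day 0 (adjusted p = 0.0466). The second of these calls was lost without any 1 control day 0 mouse (adjusted p = 0.12 to 0.16), without KO day 0 mouse 254, 258, 312 or 337 (0.0609 to 0.0872), without control day 6 mouse 393 (0.0549) and with centred arrays (0.137).

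Mcm6, another helicase subunit, was raised in both altered livers. It lay between 4.82 and 6.64 (median 5.375) in KO day 0, was 8.13, 6.68 and 6.37 in control day 6, and was 2.53, 3.99 and 2.88 in control day 0. It was 2.47 ± 0.50 above control day 0 in KO day 0 livers (adjusted p = 0.00312) and 3.93 ± 0.58 above it in control day 6 livers (adjusted p = 0.00131). The KO day 0 value was 1.45 ± 0.50 below control day 6, which did not pass (adjusted p = 0.132). Fen1, the nuclease that trims Okazaki fragments, went another way. It lay between 6.85 and 7.3 in KO day 0 livers, was 8.46, 8.05 and 8.48 in control day 6 and 7.89, 8.25 and 8.08 in control day 0. KO day 0 livers were the low group, 1.16 ± 0.16 below control day 6 (adjusted p = 0.000227) and 0.90 ± 0.16 below control day 0 (adjusted p = 0.000973); averaging the gene's probe sets ended the second call (adjusted p = 0.546).

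The S phase enzyme Tk1 and the clamp Pcna were not called between the altered livers. Tk1, the thymidine kinase of nucleotide salvage, lay between 4.55 and 5.82 (median 5.085) in KO day 0 livers, was 7.12, 6.51 and 7.63 in control day 6 mice 303, 392 and 393, and was 6.57, 7.19 and 7.89 in control day 0. KO day 0 livers lay below both control groups, which overlapped. The difference of −1.96 ± 0.58 from control day 6 did not pass (adjusted p = 0.0732) except in a fit of only the 3 groups (0.00971). The difference of −2.08 ± 0.58 from control day 0 passed (adjusted p = 0.0281), but not without control day 0 mouse 265 (0.0972) or 303 (0.161) or without KO day 0 mouse 312, 332 or 337 (0.0504 to 0.0544). Pcna, the sliding clamp of DNA polymerases, lay between 9.36 and 10.08 in KO day 0, was 10.31, 10.14 and 9.87 in control day 6 and 9.51, 9.72 and 9.2 in control day 0, with an interval of −0.701 to 0.115 for KO day 0 minus control day 6.

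Genes of G2 and mitosis were also lower in chronically injured than in regenerating liver. Of 43 listed genes, 41 were on the array and 21 were tested; the other 20 had too little signal. A gene that is high in 1 group can enter through that group alone, so counts over tested members describe those genes and not a whole list. In KO day 0 against control day 6, 6 were called lower (Cdk1, Hmgb2, Mki67, Pbk, Smc2 and Top2a) and none higher, with a median difference of −1.743. Of all tested genes 1.38% were called lower there. Relative to control day 0, 6 were higher in KO day 0 livers (median 1.197) and 14 in control day 6 livers (median 2.963), and none was lower in either. The shares of all tested genes called higher were 6.79% and 2.12%. The number called lower ran from 2 without control day 6 mouse 393 to 19 without mouse 303, and the median from −0.663 to −2.482, so the size of this gap rests on which regenerating livers are counted. The 6 higher than control day 0 became 10 without control day 6 mouse 303 and 3 without control day 0 mouse 265 or 303, and the 14 became 9 without control day 6 mouse 392 and 8 without control day 0 mouse 265. Over the tested list, liver means minus the control day 0 mean lay between 0.685 and 2.068 in KO day 0 and between 1.252 and 4.911 in control day 6.

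Mki67, the gene of the proliferation marker Ki-67, lay between 4.2 and 5.96 (median 5.135) in KO day 0 livers. It was 5.81, 6.75 and 8.05 in control day 6 mice 303, 392 and 393, and 3.08, 2.78 and 2.83 in control day 0 mice 263, 265 and 303. The highest KO day 0 liver overlapped the lowest regenerating liver, and unresected control liver lay under log2 4 throughout. Mki67 was 1.84 ± 0.47 lower in KO day 0 than in control day 6 (adjusted p = 0.0341), and above control day 0 by 2.14 ± 0.47 in KO day 0 (adjusted p = 0.0062) and by 3.97 ± 0.54 in control day 6 (adjusted p = 0.000751).

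Cdk1 encodes the kinase that drives entry into mitosis. It lay between 4.54 and 6.13 (median 4.985) in KO day 0 livers, was 5.47, 7.69 and 9.44 in control day 6, and was 3.46, 2.64 and 2.65 in control day 0. It was 2.32 ± 0.57 lower in KO day 0 than in control day 6 (adjusted p = 0.0279), and 2.29 ± 0.57 and 4.62 ± 0.66 above control day 0 in the same 2 groups (adjusted p = 0.015 and 0.00109); the first of these was lost without control day 0 mouse 265 (0.0835) or 303 (0.0756). Top2a, the topoisomerase that untangles replicated chromosomes, separated the groups fully. It lay between 2.94 and 3.97 (median 3.065) in KO day 0 livers, was 4.82, 5.94 and 7.05 in control day 6 and 2.88, 2.22 and 2.11 in control day 0. KO day 0 and control day 0 were both at or under log2 4 on every array, and Top2a was at least 2.74 ± 0.36 lower in KO day 0 than in control day 6 (adjusted p = 0.000124). Cdca5, a protector of sister chromatid cohesion, fell by 2.80 ± 0.43 in KO day 0 relative to control day 6 in the same manner (adjusted p = 0.000673), with 2.39 to 3.88 in KO day 0 against 4.89, 4.97 and 7.63 in control day 6 and 2.37 to 2.4 in control day 0.

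Single arrays ended several of these calls. Without control day 6 mouse 393 the calls of KO day 0 against control day 6 were lost for Mki67 (adjusted p = 0.221), Cdk1 (0.192), Rfc5 (0.192), Gins1 (0.116), Smc2 (0.114) and Pbk (0.106). Without mouse 392 they were lost for Cdk1 (0.127), Mki67 (0.114), Mcm2 (0.114), Lig1 (0.0918), Rfc5 (0.0846) and Pbk (0.0788), and without mouse 303 for Mcm2 (0.171), Lig1 (0.134) and Gins1 (0.0729). Leaving out 1 of the KO day 0 mice ended the call of Mki67 in 5 cases (all but mouse 332), of Rfc5 in 5 (all but 332), of Lig1 in 4 (250, 258, 312 and 332), of Mcm2 in 3 (312, 332 and 337), of Cdk1 in 2 (254 and 337) and of Gins1 in 1 (312), at adjusted p between 0.0505 and 0.0689. Fen1, Mcm5, Mcm7, Hmgb2, Top2a and Cdca5 passed in KO day 0 against control day 6 under every alternative run.

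**Figure D2:**
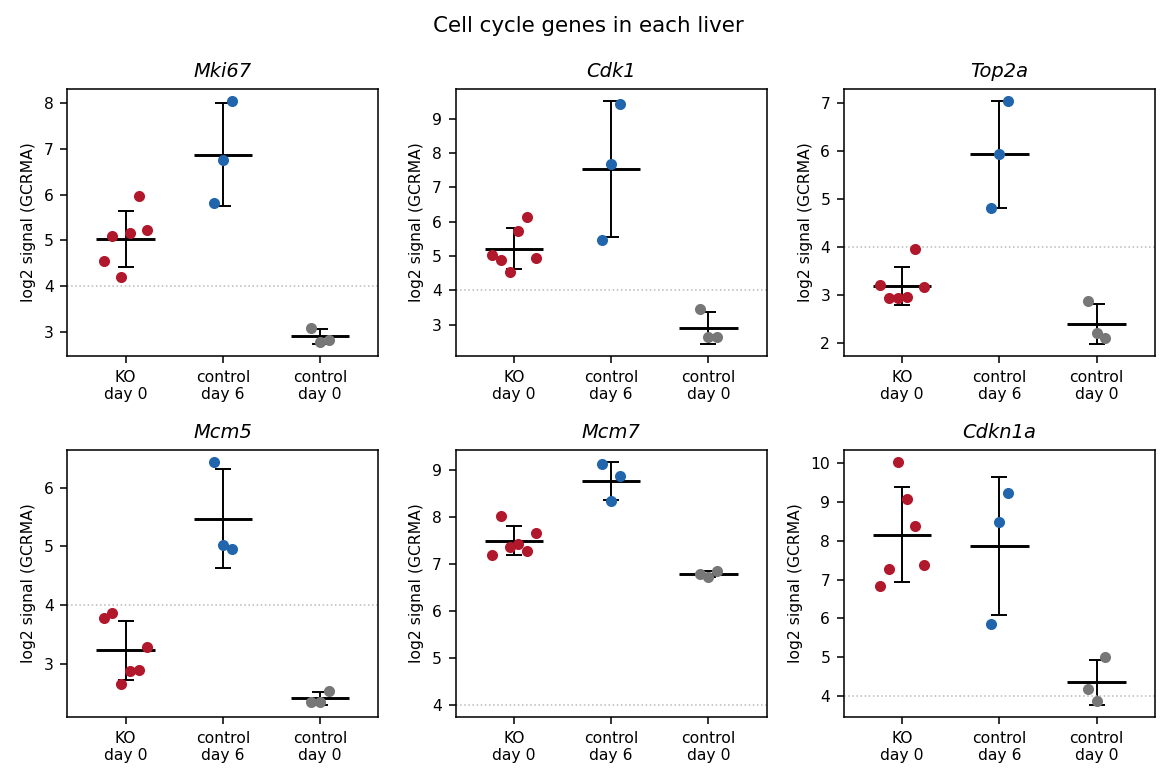
Log2 signal of 6 cell cycle genes in each liver; points are mice, black lines are means, bars are SD, and the dotted line marks log2 4. Mcm5 and Top2a are at or under the line in all KO day 0 livers, Mki67 and Cdk1 are in between, and Cdkn1a overlaps between KO day 0 and control day 6.

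Promoters are shown for the genes on which the cell cycle result turns, because 2 short motifs are textbook marks of cell cycle promoters. The cell cycle homology region has the core TTTGAA and is known from promoters of G2 and mitosis genes, and E2F factors bind TTTNNCGC at promoters of S phase genes. The 200 bases before the transcription start were searched on both strands in RefSeq (GRCm38.p6), and matches are in capitals.
Cdk1, chr10:69352913-69353112, minus strand: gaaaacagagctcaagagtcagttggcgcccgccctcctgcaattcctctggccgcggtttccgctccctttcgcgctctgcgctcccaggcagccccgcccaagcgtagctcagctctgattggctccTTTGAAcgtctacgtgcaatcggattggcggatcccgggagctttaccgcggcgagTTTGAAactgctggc
Mki67, chr7:135716380-135716579, minus strand: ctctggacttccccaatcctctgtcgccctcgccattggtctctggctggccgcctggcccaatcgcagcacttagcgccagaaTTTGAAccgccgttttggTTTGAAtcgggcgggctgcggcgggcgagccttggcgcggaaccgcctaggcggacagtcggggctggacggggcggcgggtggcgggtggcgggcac
Top2a, chr11:99024190-99024389, minus strand: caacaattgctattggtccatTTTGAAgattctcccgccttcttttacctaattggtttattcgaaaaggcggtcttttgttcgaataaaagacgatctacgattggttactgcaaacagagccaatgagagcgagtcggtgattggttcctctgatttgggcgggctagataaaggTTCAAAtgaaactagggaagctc
Mcm5, chr8:75109309-75109508, plus strand: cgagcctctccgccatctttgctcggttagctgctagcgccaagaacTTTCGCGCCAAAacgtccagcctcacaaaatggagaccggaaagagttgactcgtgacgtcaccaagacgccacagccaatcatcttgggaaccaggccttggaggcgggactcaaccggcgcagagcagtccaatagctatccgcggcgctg
Mcm7, chr5:138171884-138172083, minus strand: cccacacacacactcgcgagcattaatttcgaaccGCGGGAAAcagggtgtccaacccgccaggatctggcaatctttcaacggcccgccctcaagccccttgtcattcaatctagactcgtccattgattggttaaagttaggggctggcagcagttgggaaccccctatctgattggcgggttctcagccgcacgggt
TTTGAA began 71 and 15 bases before the start in Cdk1 and 116 and 98 bases before it in Mki67. In Top2a it lay at 179 bases and, on the other strand, at 23 bases. TTTNNCGC lay at 153 and, on the other strand, 149 bases in Mcm5, where both matches overlap, and on the other strand at 165 bases in Mcm7. All 5 lower mitosis genes with a promoter in the table held TTTGAA, as did 10 of 15 tested mitosis genes with one, against 8.1% of tested genes and 12.7% of all 27025 genes. TTTNNCGC was in 2 of 6 lower replication genes and in 4 of 22 tested ones, against 6.3% of tested genes and 3.6% of all genes. A match describes these letters and does not show a bound site.

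Of 12 tested G1 cyclins and inhibitors of cyclin-dependent kinases, 4 were called higher in KO day 0 than in control day 0, against 6.79% of all tested genes, and 2 in control day 6, against 2.12%. The list medians were 0.042 and 0.12, and the 4 became 1 without control day 0 mouse 265 and 2 without mouse 263 or 303. Cdkn1a, the gene of the p21 inhibitor of cyclin-dependent kinases and a p53 target, lay between 6.83 and 10.03 (median 7.88) in KO day 0, was 5.85, 8.48 and 9.24 in control day 6 mice 303, 392 and 393, and was 4.18, 3.89 and 5.01 in control day 0. Every liver of the first 2 groups exceeded every unresected control liver, and the first 2 groups overlapped. Cdkn1a was 3.80 ± 0.86 above control day 0 in KO day 0 (adjusted p = 0.00767) and 3.50 ± 0.99 above it in control day 6, which did not pass (adjusted p = 0.0661) except without control day 6 mouse 303 (adjusted p = 0.0198). The first call was lost without control day 0 mouse 265 (adjusted p = 0.0527). The difference of KO day 0 from control day 6 was 0.30 ± 0.86, with a 95% interval of −1.505 to 2.112, which includes several-fold differences in either direction. It was −0.700 without control day 6 mouse 303 and −0.071 without KO day 0 mouse 258.

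Cdkn2c, the gene of the p18 inhibitor of the G1 kinases Cdk4 and Cdk6, passed in both. It lay between 5.84 and 6.86 (median 6.315) in KO day 0, was 4.71, 5.76 and 6.84 in control day 6 and 4.27, 3.43 and 2.88 in control day 0. It exceeded control day 0 by 2.83 ± 0.37 in KO day 0 (adjusted p = 5.36e-05) and by 2.24 ± 0.43 in control day 6 (adjusted p = 0.00916), and its interval for KO day 0 minus control day 6 was −0.191 to 1.364. Ccnd1, the gene of cyclin D1, which starts G1 progression in hepatocytes, lay between 9.9 and 10.78 in KO day 0, was 10.17, 9.79 and 9.93 in control day 6 and 8.78, 8.49 and 8.42 in control day 0. It was 1.85 ± 0.49 above control day 0 in KO day 0 (adjusted p = 0.0224), a call lost without any 1 control day 0 mouse (adjusted p = 0.0532 to 0.0937), and 1.40 ± 0.57 above it in control day 6 (adjusted p = 0.213). For KO day 0 minus control day 6 its interval was −0.582 to 1.488. Stmn1, a tubulin-binding protein of dividing cells, was called above control day 0 in both (2.35 ± 0.41 in KO day 0, adjusted p = 0.000948, and 3.44 ± 0.48 in control day 6, adjusted p = 0.000802).

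Of the 12 tested genes among G1 cyclins and inhibitors, Rbl1 alone was called in KO day 0 against control day 6. Rbl1, a relative of the retinoblastoma protein, was 1.21 ± 0.33 lower (adjusted p = 0.047) and the call was lost without any 1 control day 6 mouse (adjusted p = 0.11 to 0.132), any 1 control day 0 mouse (0.0539 to 0.0608) or any KO day 0 mouse other than 254 (0.0698 to 0.0898). None of 16 tested p53 targets, 13 double-strand break repair genes, 16 ribosome biogenesis genes or 8 nucleotide synthesis and S phase genes was called in KO day 0 against control day 6. Of all tested genes 3.51% were called there, and at that share a list of this size can hold no call. Median differences of these lists were 0.05, 0.012, −0.083 and −0.613. Against control day 0, the p53 targets had 2 higher and 1 lower in KO day 0 and none called in control day 6, and the S phase genes had 1 lower in KO day 0 and 3 higher in control day 6. Of all tested genes 6.79% were higher and 2.87% lower in KO day 0, and 2.12% were higher in control day 6. Without control day 0 mouse 265 no p53 target was higher in KO day 0, without control day 6 mouse 303 there were 2 higher in control day 6, and without control day 0 mouse 303 the 3 S phase genes became 1.

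Growth signalling genes were called mostly against unresected control liver. Of 13 tested immediate early and growth response genes 5 were higher and none lower in KO day 0 than in control day 0 (median 1.37), and of 19 tested growth factors and receptors 4 were higher and 1 lower (median 0.622), against 6.79% and 2.87% of all tested genes. No gene of either list was called in control day 6 against control day 0, where the medians were 0.677 and 0.32. Without control day 0 mouse 265 the 5 became 1 and the 4 became 2, and without 1 of 8 other arrays the 5 became 2 or 3 (KO day 0 mouse 254, 258, 312 or 337, control day 6 mouse 392 or 393, control day 0 mouse 263 or 303). In KO day 0 against control day 6, 3.51% of all tested genes were called. Among the immediate early genes Klf6, a zinc-finger factor of injured liver, was the only one called there. It lay between 6.38 and 8.26 (median 7.7) in KO day 0, was 6.67, 5.37 and 5.72 in control day 6 and 4.76, 4.2 and 4.64 in control day 0, a difference of 1.68 ± 0.41 from control day 6 (adjusted p = 0.0273). That call was lost without control day 6 mouse 392 (adjusted p = 0.192) or 393 (0.101) and without KO day 0 mouse 332 (0.0572) or 337 (0.057). Fos and Myc, immediate early transcription factors, were not called; Fos lay between 4.26 and 9.86 in KO day 0, was 5.02, 4.83 and 6.69 in control day 6 and 4.84, 3.61 and 3.15 in control day 0. Hgf, the hepatocyte growth factor, lay between 2.96 and 4.75 in KO day 0 and between 2.74 and 3.34 in all 6 control livers, near background. Among the growth factors and receptors Tgfbr2, the type II receptor of the growth inhibitor TGF-beta, was higher by 1.76 ± 0.34 (adjusted p = 0.00458). Lifr, the receptor of leukaemia inhibitory factor, fell by 2.06 ± 0.30 in KO day 0 relative to control day 6 (adjusted p = 0.000392), with 8.77 to 9.49 in KO day 0 against 11.28, 10.89 and 11.72 in control day 6. Averaging the probe sets of Lifr ended its call (adjusted p = 0.132).

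Matrix genes were the largest group higher in chronically injured liver. Of 29 listed genes of the extracellular matrix, 28 were on the array and 22 were tested. In KO day 0 against control day 6, 8 were called higher (Bgn, Col1a2, Col6a1, Col6a3, Dcn, Lum, Mgp and Nid1) and none lower, against 2.13% of all tested genes called higher, and the median difference was 1.173. Set against control day 0, 15 were higher in KO day 0 (median 2.292) and 1 in control day 6 (median 0.472). Of all tested genes 6.79% and 2.12% were higher in the same 2 comparisons. Of 11 tested matrix remodelling genes 3 were higher in KO day 0 than in control day 6 (Loxl1, Mmp12 and Mmp2), and of 12 tested stellate cell and myofibroblast genes 4 were (Pdgfra, Pdgfrb, Reln and Tagln). These RNAs come from whole liver, so more cells of a type and more RNA per cell cannot be told apart. The count of higher matrix genes was 5 without control day 6 mouse 392 or 393, and the count of higher stellate genes 1 without 392 and 2 without 393.

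Col6a3 encodes a chain of collagen VI. It lay between 6.79 and 8.58 (median 7.46) in KO day 0 livers, was 3.86, 3.68 and 3.47 in control day 6 and 3.23, 3.91 and 4.03 in control day 0. Regenerating and unresected control livers overlapped near background, and KO day 0 was 3.88 ± 0.43 above control day 6 (adjusted p = 2.43e-05), so at least that far. Lum, the gene of the collagen-binding proteoglycan lumican, lay between 8.63 and 10.2 in KO day 0, was 6.95, 7.29 and 5.53 in control day 6 and 4.76, 5.62 and 5.02 in control day 0. Its difference from control day 6 was 2.85 ± 0.51 (adjusted p = 0.00287). Mgp, an inhibitor of calcification in matrix, was 4.06 ± 0.61 higher (adjusted p = 0.000505), and Nid1, a basement membrane linker, 2.54 ± 0.45 higher (adjusted p = 0.00266).

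Col1a1 and Col3a1, fibrillar collagen genes, rose against unresected control liver without passing against regenerating liver, where Col1a2 was called. Col1a1 lay between 5.51 and 9.9 (median 6.87) in KO day 0, was 4.37, 4.45 and 3.67 in control day 6 and 2.51, 2.6 and 2.17 in control day 0. The groups did not overlap, and the difference from control day 6 was 2.85 ± 0.89 (adjusted p = 0.0889), against 4.58 ± 0.89 from control day 0 (adjusted p = 0.00214). Col3a1 lay between 9.96 and 12.27 in KO day 0, was 8.6, 9.01 and 8.87 in control day 6 and 6.54, 5.71 and 7.43 in control day 0. KO day 0 was 1.98 ± 0.56 above control day 6 (adjusted p = 0.0592) and 4.25 ± 0.56 above control day 0 (adjusted p = 5.61e-05), while control day 6 was 2.27 ± 0.65 above control day 0 (adjusted p = 0.0674). That last difference passed without KO day 0 mouse 258 (adjusted p = 0.0428), the liver with the highest Col1a1 and Col3a1. Fitting only the 3 groups brought both collagens past the threshold against control day 6 (adjusted p = 0.0464 and 0.0286). Acta2, the smooth muscle actin of activated stellate cells, was called in neither comparison of KO day 0, at 5.07 to 6.32 in KO day 0, 4.81 to 5.15 in control day 6 and 4.61 to 5.14 in control day 0.

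Mmp12, the elastase of macrophages, was high in KO day 0 livers alone. It lay between 6.36 and 8.3 (median 7.405) in KO day 0, was 3.36, 2.86 and 3.53 in control day 6, and 3.29, 3.35 and 2.78 in control day 0. Both control groups were at or under log2 4, and KO day 0 was at least 4.01 ± 0.34 above control day 6 (adjusted p = 7.5e-07). Dpt, the matrix protein dermatopontin, had the same pattern, at 3.88 to 7.24 in KO day 0, 2 to 2.61 in control day 6 and 2.35 to 2.82 in control day 0, a difference of 3.71 ± 0.75 from control day 6 (adjusted p = 0.00728). Among the fibrosis genes named above, without control day 6 mouse 392 the calls of KO day 0 against control day 6 were lost for Loxl1 (0.15), Col1a2 (0.119), Reln (0.114), Bgn (0.0844), Col6a1 (0.067) and Pdgfra (0.056), and without mouse 393 for Pdgfra (0.112), Bgn (0.0939), Loxl1 (0.0853), Col1a2 (0.0851), Dcn (0.0763) and Reln (0.0527). Tagln was lost without mouse 392 (0.0751) or 303 (0.096), and Loxl1 also without mouse 303 (0.0721) and without KO day 0 mouse 254, 258, 332 or 337 (0.0616 to 0.0722). Averaging probe sets ended the call of Mmp2 (0.0596).

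Genes of bile ducts, progenitors and liver tumours were also higher in chronic injury. Of 10 tested bile duct and progenitor genes 3 were higher in KO day 0 than in control day 6 (Cd24a, Cdh1 and Tspan8), and of 13 tested oncofetal and tumour genes 4 were (Anxa2, Anxa5, Cd36 and Golm1), with none lower in either list. Of all tested genes 2.13% were called higher there. Relative to control day 0, 6 and 8 members were higher in KO day 0, against 6.79% of all tested genes, and 3 and 1 in control day 6, against 2.12%. The 3 bile duct genes higher in control day 6 than in control day 0 became 0 without control day 6 mouse 392 or control day 0 mouse 265. They became 1 without control day 0 mouse 263. The 3 higher in KO day 0 than in control day 6 ran between 2 and 4 over the alternatives. Median differences for KO day 0 minus control day 6 were 0.664 and 2.062.

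Anxa5, a phospholipid-binding annexin, had narrow groups. It lay between 11.62 and 11.9 (median 11.76) in KO day 0, was 8.24, 7.87 and 7.13 in control day 6, and was 7.38, 7.3 and 6.33 in control day 0. Only KO day 0 livers stood high, 4.01 ± 0.31 above control day 6 (adjusted p = 2.25e-07) and 4.75 ± 0.31 above control day 0 (adjusted p = 3.27e-08), while control day 6 was 0.74 ± 0.36 above control day 0 (adjusted p = 0.316). Golm1, a Golgi protein raised in human liver disease, was 3.05 ± 0.42 above control day 6 in KO day 0 (adjusted p = 0.000242), at 6.62 to 7.21 against 3.08, 3.88 and 4.55. Tspan8, an epithelial tetraspanin, lay between 4.89 and 6.98 in KO day 0 and between 2.71 and 2.94 in all 6 control livers of both days, a difference of at least 3.09 ± 0.28 from control day 6 (adjusted p = 2.03e-06). Cdh1, epithelial cadherin, was 1.83 ± 0.31 higher than in control day 6 (adjusted p = 0.00183). Calls of Cd24a and Cd36 were lost without control day 6 mouse 393 (adjusted p = 0.24 and 0.0814); Cd24a was also lost without mouse 392 (0.0568), any 1 control day 0 mouse (0.0507 to 0.0521) or any KO day 0 mouse but 312 (0.0558 to 0.0782), and Cd36 without control day 6 mouse 303 (0.16) or KO day 0 mouse 250, 254 or 258 (0.0566 to 0.0669). Krt19 and Sox9, textbook markers of bile duct cells, were not called against control day 6. Krt19 lay between 3.39 and 5.02 in KO day 0, was 3.19, 3.53 and 3.41 in control day 6 and 2.71, 3.4 and 2.98 in control day 0, and Sox9 lay between 4.44 and 7.01, 4.74 and 4.95, and 4.73 and 4.89 in the same order of groups.

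Sox4, a transcription factor of fetal liver and bile duct formation, was among the largest rises. It lay between 7.48 and 8.22 (median 8.035) in KO day 0, was 2.18, 4.44 and 4.44 in control day 6 and 3.67, 2.69 and 3.82 in control day 0, a difference of 4.24 ± 0.49 from control day 6 (adjusted p = 4.36e-05). Ubd, the ubiquitin-like protein FAT10, is an interferon- and TNF-inducible gene overexpressed in liver tumours. It lay between 7.56 and 9.74 (median 8.165) in KO day 0, was 5.9, 3.83 and 2.43 in control day 6 mice 303, 392 and 393, and 2.44, 3.08 and 2.5 in control day 0, a difference of 4.31 ± 0.75 from control day 6 (adjusted p = 0.00221).

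Casp12, a caspase linked to stress of the endoplasmic reticulum in mice, had the largest rise of all called genes. It lay between 8.33 and 9.1 (median 8.77) in KO day 0, was 3.92, 3.67 and 3.05 in control day 6, and was 4.19, 3.92 and 3.05 in control day 0. The control groups overlapped near background, and KO day 0 exceeded control day 6 by at least 5.21 ± 0.36 (adjusted p = 8.01e-08). Probe sequences were not compared with either strain here, so for such values a strain difference within a probe set and a difference in RNA level cannot be told apart. Casp4, the inflammatory caspase that senses lipopolysaccharide, was 2.80 ± 0.56 higher (adjusted p = 0.00682), at 5.65 to 7.26 in KO day 0 against 4.32, 3.45 and 2.72 in control day 6. They were the 2 called of 16 tested cell death genes, against 3.51% of all tested genes called and 2.13% called higher. Tinag, a basement membrane protein of kidney tubules, and Plet1, a surface protein of epithelial progenitors, were at or under log2 4 in all 6 control livers and at least 4.70 ± 0.65 and 4.17 ± 0.46 above control day 6 in KO day 0 (adjusted p = 0.000235 and 2.75e-05). Cav1, the scaffold protein of caveolae and the 1 called of 16 tested endothelial genes, was 3.64 ± 0.46 higher (adjusted p = 9.33e-05). For the endothelial list 1 call of 16 is near the share of all tested genes called.

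**Figure D3:**
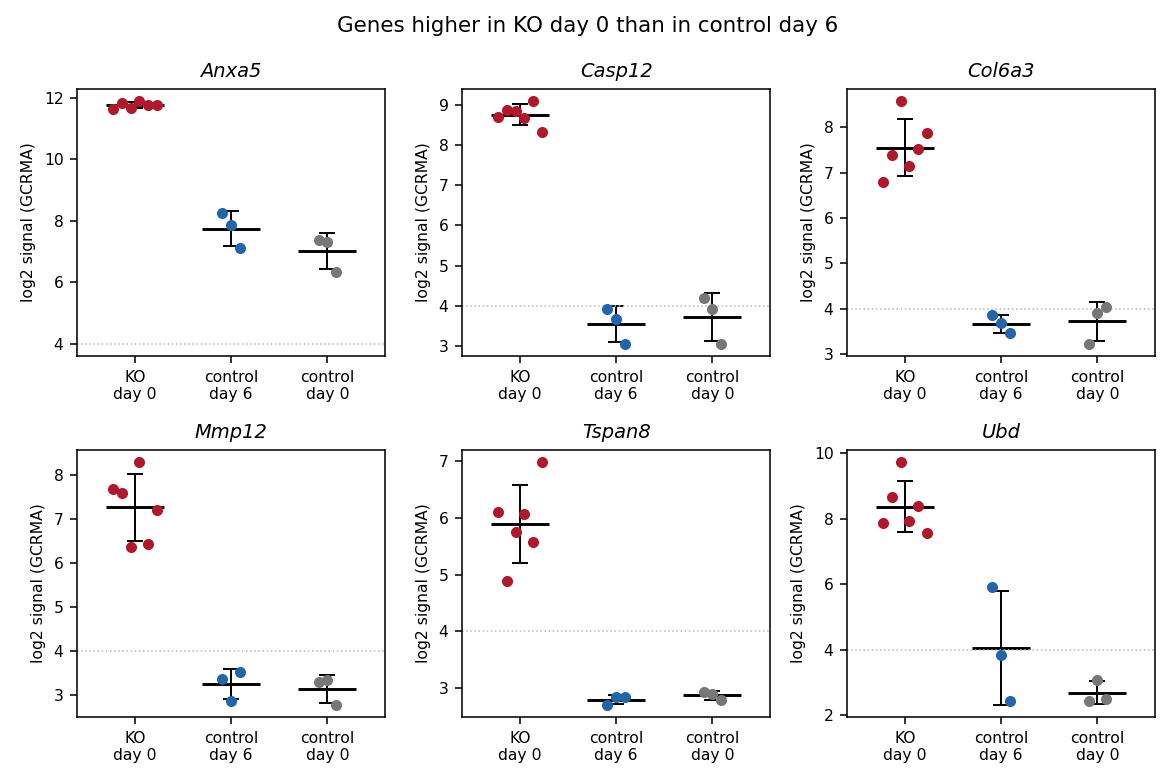
Log2 signal in each liver for 6 genes higher in KO day 0 than in control day 6; points are mice, black lines are means, bars are SD, and the dotted line marks log2 4. Casp12, Col6a3, Mmp12 and Tspan8 lie near background in both control groups, and Ubd spreads widely among control day 6 livers.

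Some epithelial and secreted markers of injury were shared. Krt18, a keratin of hepatocytes and bile ducts, lay between 12.35 and 13.0 in KO day 0, was 12.49, 12.28 and 12.26 in control day 6 and 10.73, 11.01 and 11.12 in control day 0. It exceeded control day 0 by 1.64 ± 0.26 in KO day 0 (adjusted p = 0.000354) and by 1.39 ± 0.30 in control day 6 (adjusted p = 0.015), and the interval of KO day 0 minus control day 6 was −0.293 to 0.793. The control day 6 call was lost without control day 6 mouse 392 (0.0662) or control day 0 mouse 263 (0.0652) or 265 (0.063). Krt8, its partner, was 1.90 ± 0.23 above control day 0 in KO day 0 (adjusted p = 3.26e-05) and 1.16 ± 0.27 above it in control day 6 (adjusted p = 0.0237); the second call was lost without control day 6 mouse 303 (0.0668) or 392 (0.0854) or control day 0 mouse 263 (0.0795) or 265 (0.13). Slpi, a secreted inhibitor of leukocyte proteases, was graded, at 10.49 to 12.52 in KO day 0, 8.78, 8.59 and 7.81 in control day 6 and 6.32, 4.3 and 5.0 in control day 0. All 3 of its differences passed, at 3.04 ± 0.47 for KO day 0 against control day 6 (adjusted p = 0.00066), 6.23 ± 0.47 for KO day 0 against control day 0 (adjusted p = 1.1e-07) and 3.19 ± 0.54 for control day 6 against control day 0 (adjusted p = 0.00389).

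Interferon-stimulated genes were lower in chronically injured than in regenerating liver. All 23 of the 26 listed genes that were on the array were tested. In KO day 0 against control day 6, 8 were called lower (Gbp2, Gbp3, Ifi47, Igtp, Irf7, Oas1a, Psmb8 and Psmb9) and Ubd higher, against 1.38% and 2.13% of all tested genes, with a median difference of −2.245. Relative to control day 0, 2 were higher in KO day 0 (median 0.295) and 8 in control day 6 (median 2.597), and none was lower. Of all tested genes 6.79% and 2.12% were higher in the same 2 comparisons. The 8 in control day 6 became 2 without control day 6 mouse 392 or control day 0 mouse 265, 4 without control day 0 mouse 263 or 303, and 13 without control day 6 mouse 393. Liver means of the list minus the control day 0 mean lay between 0.473 and 0.857 in KO day 0 livers and were 1.256, 2.755 and 3.823 in control day 6 livers in rising order. The number of lower genes was 2 without control day 6 mouse 392, 7 without mouse 303 and 11 without mouse 393.

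Oas1a encodes an enzyme that makes 2'-5' oligoadenylate and so activates RNase L against viral RNA. It lay between 2.94 and 4.93 (median 3.75) in KO day 0, was 6.41, 9.61 and 6.57 in control day 6 mice 303, 392 and 393, and was 3.27, 2.65 and 3.51 in control day 0. Regenerating livers were high and did not overlap the others, and Oas1a fell by 3.79 ± 0.68 in KO day 0 relative to control day 6 (adjusted p = 0.00288). Igtp, an interferon-gamma-induced GTPase that guards intracellular membranes, lay between 8.12 and 9.22 (median 8.75) in KO day 0, was 13.43, 11.95 and 10.22 in control day 6, and was 9.03, 9.35 and 9.38 in control day 0. Igtp fell by 3.12 ± 0.61 in KO day 0 relative to control day 6 (adjusted p = 0.00589), and control day 6 was 2.61 ± 0.71 above control day 0 (adjusted p = 0.0524), which passed without control day 6 mouse 393 (adjusted p = 0.00856). Gbp2, a guanylate-binding protein of the same response, lay between 4.52 and 5.26 in KO day 0, was 9.23, 8.02 and 5.68 in control day 6, and was 5.23, 4.23 and 4.15 in control day 0. Its difference was −2.80 ± 0.58 (adjusted p = 0.00868) and was lost without control day 6 mouse 303 (0.0626) or 392 (0.0651).

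The control day 6 livers did not agree on which interferon genes were highest. Mouse 392 was highest for Oas1a, Irf7, Ifit1 and Usp18, and mouse 303 for Igtp, Gbp2, Ifi47 and Psmb9. Ifit1, a protein that binds foreign RNA, was 5.3, 10.81 and 6.95 in mice 303, 392 and 393, against 2.55 to 5.66 in KO day 0 and 2.7, 2.68 and 3.02 in control day 0. Its difference of −3.83 ± 1.06 between KO day 0 and control day 6 did not pass (adjusted p = 0.0517), but passed without control day 6 mouse 303 (0.0142) or KO day 0 mouse 250 (0.0395), and under quantile normalization, centring or a fit of only the 3 groups (0.0417 to 0.0467). Usp18, which removes the interferon-induced modifier ISG15, was raised in both altered livers. It lay between 4.35 and 6.11 in KO day 0, was 5.71, 9.97 and 7.23 in control day 6, and between 2.34 and 2.37 in control day 0, at least 3.18 ± 0.75 above control day 0 in KO day 0 (adjusted p = 0.00992) and 5.28 ± 0.86 above it in control day 6 (adjusted p = 0.00309). Without control day 6 mouse 392 calls were also lost for Irf7 (0.26), Gbp3 (0.201), Ifi47 (0.103), Psmb8 (0.0786) and Psmb9 (0.057), and without mouse 303 for Gbp3 (0.0948), Ifi47 (0.0811) and Psmb9 (0.0566); Irf7 was lost without KO day 0 mouse 337 as well (0.057).

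Promoters of Oas1a, Igtp and Gbp2 are shown because interferon-stimulated response elements carry repeated GAAA. The same 200 bases were searched on both strands for GAAA followed by any 2 bases and GAAA again (RefSeq, GRCm38.p6), and matches are in capitals.
Oas1a, chr5:120907526-120907725, minus strand: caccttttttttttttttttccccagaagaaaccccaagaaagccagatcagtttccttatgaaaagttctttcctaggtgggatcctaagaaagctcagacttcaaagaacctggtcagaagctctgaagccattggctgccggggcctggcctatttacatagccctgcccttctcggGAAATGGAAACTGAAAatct
Igtp, chr11:58199356-58199555, plus strand: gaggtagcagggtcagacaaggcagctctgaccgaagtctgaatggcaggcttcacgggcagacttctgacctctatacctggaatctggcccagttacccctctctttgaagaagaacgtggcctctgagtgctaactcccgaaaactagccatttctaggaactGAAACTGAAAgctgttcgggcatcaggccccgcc
Gbp2, chr3:142620463-142620662, plus strand: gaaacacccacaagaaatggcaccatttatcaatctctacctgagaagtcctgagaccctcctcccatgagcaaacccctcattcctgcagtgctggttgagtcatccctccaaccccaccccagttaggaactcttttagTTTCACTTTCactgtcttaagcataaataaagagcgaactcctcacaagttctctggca
Oas1a held overlapping matches beginning 20 and 14 bases before the start, Igtp 1 at 34 bases, and Gbp2 1 at 59 bases on the other strand. Of the 8 lower interferon genes 4 held the motif (Gbp2, Gbp3, Igtp and Oas1a), and 6 of 19 tested list members with a promoter in the table did, against 1.9% of tested genes and 2.3% of all genes.

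The few called macrophage genes went both ways. Of 19 tested Kupffer cell and macrophage genes, Marco and Cd163 were lower and Gpnmb was higher in KO day 0 than in control day 6. Of all tested genes 1.38% were lower and 2.13% higher there. Relative to control day 0, 5 were higher and 1 lower in KO day 0, against 6.79% and 2.87% of all tested genes. In control day 6, 2 were higher, against 2.12%. The 5 became 1 without control day 0 mouse 265. Marco, a scavenger receptor for bacteria, lay between 2.02 and 2.37 (median 2.11) in KO day 0, was 10.83, 8.03 and 6.56 in control day 6 mice 303, 392 and 393, and was 2.77, 2.88 and 2.42 in control day 0. It was high in regenerating liver alone, at least 6.33 ± 1.14 above KO day 0 (adjusted p = 0.00299) and 5.78 ± 1.32 above control day 0 (adjusted p = 0.0208). The second call was lost without control day 6 mouse 303 (0.0796) or 392 (0.0767) or any 1 control day 0 mouse (0.0639 to 0.0801).

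Cd163, the haemoglobin scavenger receptor of resident macrophages, was low in chronic injury alone. It lay between 2.46 and 2.58 (median 2.525) in KO day 0, was 7.12, 7.06 and 5.58 in control day 6, and was 6.02, 6.36 and 5.34 in control day 0. Cd163 was near background in every KO day 0 liver and fell there by at least 4.07 ± 0.29 relative to control day 6 (adjusted p = 8.23e-08) and 3.38 ± 0.29 relative to control day 0 (adjusted p = 7.19e-07). Clec4f and Vsig4, also Kupffer cell markers, were well above background in all groups. Clec4f lay between 8.09 and 9.24 in KO day 0, 8.52 and 9.97 in control day 6 and 8.57 and 9.09 in control day 0, and Vsig4 between 9.32 and 9.76, 8.39 and 10.36, and 8.26 and 9.3 in the same order of groups. Liver means of the macrophage list minus the control day 0 mean lay between 0.374 and 0.885 in KO day 0 and between −0.107 and 2.307 in control day 6. Whether macrophage number or state accounts for either gene was not tested. Gpnmb, a lysosomal glycoprotein of lipid-laden macrophages, was at 3.19 to 5.03 in KO day 0 and 2.35 to 2.4 in all 6 control livers, and its call (1.63 ± 0.39, adjusted p = 0.0233) was lost without any 1 control day 6 mouse (0.0579 to 0.0936).

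Acute phase genes varied from mouse to mouse in both altered livers. Of 20 tested acute phase genes, Apcs was the only one called in KO day 0 against control day 6, near the 3.51% of all tested genes. Without KO day 0 mouse 258 there were 7 lower genes, and without control day 6 mouse 393 there were 3. Relative to control day 0, 4 were higher in KO day 0 and 5 in control day 6, against 6.79% and 2.12% of all tested genes. The 4 became 2 without control day 0 mouse 265. The 5 became 0 without control day 6 mouse 392 or control day 0 mouse 265, 3 without control day 6 mouse 303 or control day 0 mouse 263, 8 without KO day 0 mouse 258 and 11 without control day 6 mouse 393. Apcs, the gene of serum amyloid P, lay between 11.24 and 14.06 (median 11.35) in KO day 0, was 13.86, 14.59 and 13.18 in control day 6, and was 11.32, 11.13 and 11.44 in control day 0. The highest KO day 0 value, that of mouse 258, lay within the regenerating group and the other 5 within or near unresected control liver. Apcs was 2.04 ± 0.47 lower in KO day 0 than in control day 6 (adjusted p = 0.0175), and the call was lost without control day 6 mouse 392 (0.149).

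Hpx, the gene of the haem carrier haemopexin, was raised in both. It lay between 14.34 and 14.67 in KO day 0, was 14.75, 14.73 and 14.51 in control day 6 and 13.98, 13.96 and 14.05 in control day 0. It exceeded control day 0 by 0.51 ± 0.11 in KO day 0 (adjusted p = 0.00674) and by 0.67 ± 0.13 in control day 6 (adjusted p = 0.0101), with an interval of −0.398 to 0.075 between the altered livers. The control day 6 call was lost without control day 6 mouse 392 (0.0596) or control day 0 mouse 265 (0.0528), and the KO day 0 call with centred arrays (0.0506). Lcn2, the iron-siderophore binder lipocalin 2, was 10.08 to 14.14 in KO day 0, 13.97, 13.87 and 10.6 in control day 6 mice 303, 392 and 393, and 5.61, 3.06 and 9.75 in control day 0 mice 263, 265 and 303. It was 5.08 ± 1.11 and 6.67 ± 1.28 above control day 0 in the 2 altered livers (adjusted p = 0.00576 and 0.00924); without control day 0 mouse 265 neither passed (0.0763 and 0.0556), nor did the second without control day 6 mouse 392 (0.0604). Saa1, the gene of serum amyloid A1, overlapped in all 3 groups, at 10.96 to 14.67 in KO day 0, 15.17, 14.27 and 11.95 in control day 6 and 10.34, 8.7 and 12.86 in control day 0.

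Granule genes of neutrophils were also compared. Prtn3, proteinase 3, lay between 2.27 and 7.65 (median 2.415) in KO day 0, was 9.44, 8.13 and 6.3 in control day 6 mice 303, 392 and 393, and was 2.41, 2.65 and 2.31 in control day 0. Mouse 258 held the high KO day 0 value. Prtn3 fell by 4.68 ± 0.94 in KO day 0 relative to control day 6 (adjusted p = 0.00683) and was 5.50 ± 1.08 above control day 0 in control day 6 (adjusted p = 0.0103), a call lost without control day 6 mouse 392 (0.0531). S100a8, a calcium-binding protein of neutrophils and monocytes, lay between 4.14 and 7.29 in KO day 0, was 9.49, 8.15 and 6.43 in control day 6 and 5.69, 4.41 and 4.99 in control day 0, a difference of −2.43 ± 0.87 (adjusted p = 0.149). The neutrophil list, which does not hold Prtn3, had 11 genes on the array, of which 3 were tested and none was called; their liver means minus the control day 0 mean lay between −0.503 and 1.74 in KO day 0 and between 1.147 and 3.367 in control day 6. The part of blood or infiltrating cells in the acute phase, interferon and Marco values was not tested.

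**Figure D4:**
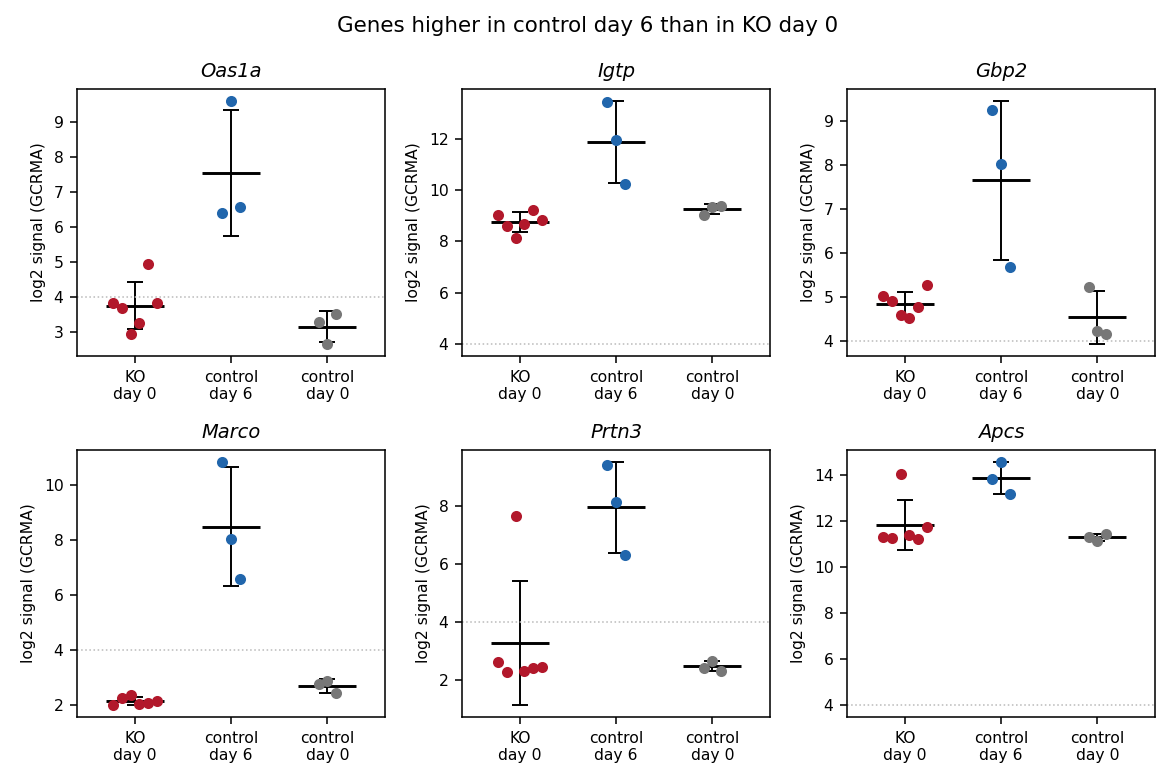
Log2 signal in each liver for 6 genes higher in control day 6 than in KO day 0; points are mice, black lines are means, bars are SD, and the dotted line marks log2 4. Marco is near background in all KO day 0 and control day 0 livers, and 1 KO day 0 liver (mouse 258) stands with the regenerating livers for Prtn3 and Apcs.

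No core gene of hepatocyte identity was called. None of 21 tested secretory and identity genes, 23 fatty acid oxidation genes or 17 cholesterol synthesis genes was called in KO day 0 against control day 6, where 3.51% of all tested genes were called; their median differences were 0.013, −0.047 and 0.592. A missed threshold does not show that they were equal. Losses in chronic injury lay in selected metabolic genes. Of 15 tested sex-biased liver genes 2 were lower than in control day 6 (Hsd3b5 and Susd4) and 4 lower than in control day 0, against 1 lower in control day 6 than in control day 0. Of 23 tested cytochrome P450 genes 1 was lower than in control day 6 (Cyp3a44) and 7 lower than in control day 0, against 2 in control day 6, where 1.38%, 2.87% and 0.738% of all tested genes were lower. The 7 became 2 without control day 0 mouse 263, 3 without mouse 303, and 4 without control day 0 mouse 265, control day 6 mouse 393 or KO day 0 mouse 258, 332 or 337, and the 2 became 0 without control day 0 mouse 263 or 265.

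Susd4, a regulator of complement, lay between 2.5 and 2.68 in KO day 0, was 7.03, 6.97 and 7.94 in control day 6, and was 7.81, 6.78 and 8.83 in control day 0. It was near background in every KO day 0 liver and fell there by at least 4.71 ± 0.51 relative to control day 6 (adjusted p = 2.36e-05) and 5.21 ± 0.51 relative to control day 0 (adjusted p = 2.29e-06). Sult5a1, a sulfotransferase, lay between 2.64 and 4.17 in KO day 0, was 7.76, 7.67 and 8.06 in control day 6 and 7.63, 8.63 and 7.83 in control day 0, a fall of 4.46 ± 0.44 relative to control day 6 (adjusted p = 5.68e-06). Dio1, the deiodinase that makes active thyroid hormone in liver, lay between 6.74 and 7.67 in KO day 0, was 10.09, 10.66 and 9.4 in control day 6 and 10.23, 10.76 and 10.62 in control day 0. It fell by 2.88 ± 0.44 relative to control day 6 (adjusted p = 0.000669). For these genes regenerating liver overlapped unresected control liver.

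Other genes were lowest in KO day 0, with control day 6 in between, or low in both. Hsd3b5, a male-specific steroid dehydrogenase, lay between 2.57 and 7.53 (median 5.495) in KO day 0, was 9.69, 8.39 and 11.58 in control day 6 and 11.8, 12.24 and 12.07 in control day 0. It was 4.90 ± 1.33 below control day 6 (adjusted p = 0.0478), a call that was lost without any 1 control day 6 mouse (0.0782 to 0.206), any 1 control day 0 mouse (0.0607 to 0.0628) or any KO day 0 mouse but 332 (0.0527 to 0.0895), and 7.05 ± 1.33 below control day 0 (adjusted p = 0.00173). Cyp2c54, an arachidonic acid epoxygenase, lay between 6.22 and 8.43 in KO day 0, was 9.97, 11.4 and 9.95 in control day 6 and 12.31, 12.11 and 11.96 in control day 0. The groups kept that order without overlap; KO day 0 was 3.06 ± 1.04 below control day 6 (adjusted p = 0.127), 4.75 ± 1.04 below control day 0 (adjusted p = 0.00598), and passed against control day 6 in a fit of only the 3 groups (0.00337). Acot3, a peroxisomal acyl-CoA thioesterase induced by PPAR-alpha, was low in both, at 3.2 to 5.26 in KO day 0 and 2.96, 3.52 and 3.24 in control day 6, against 9.53, 7.44 and 5.24 in control day 0. It was 3.71 ± 0.71 and 4.16 ± 0.82 below control day 0 (adjusted p = 0.00193 and 0.0103), and the second call was lost without control day 0 mouse 265 (0.0506). Cyp3a44, 0.91 ± 0.20 lower than in control day 6 (adjusted p = 0.0113), was not called without control day 6 mouse 392 (0.127).

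**Figure D5:**
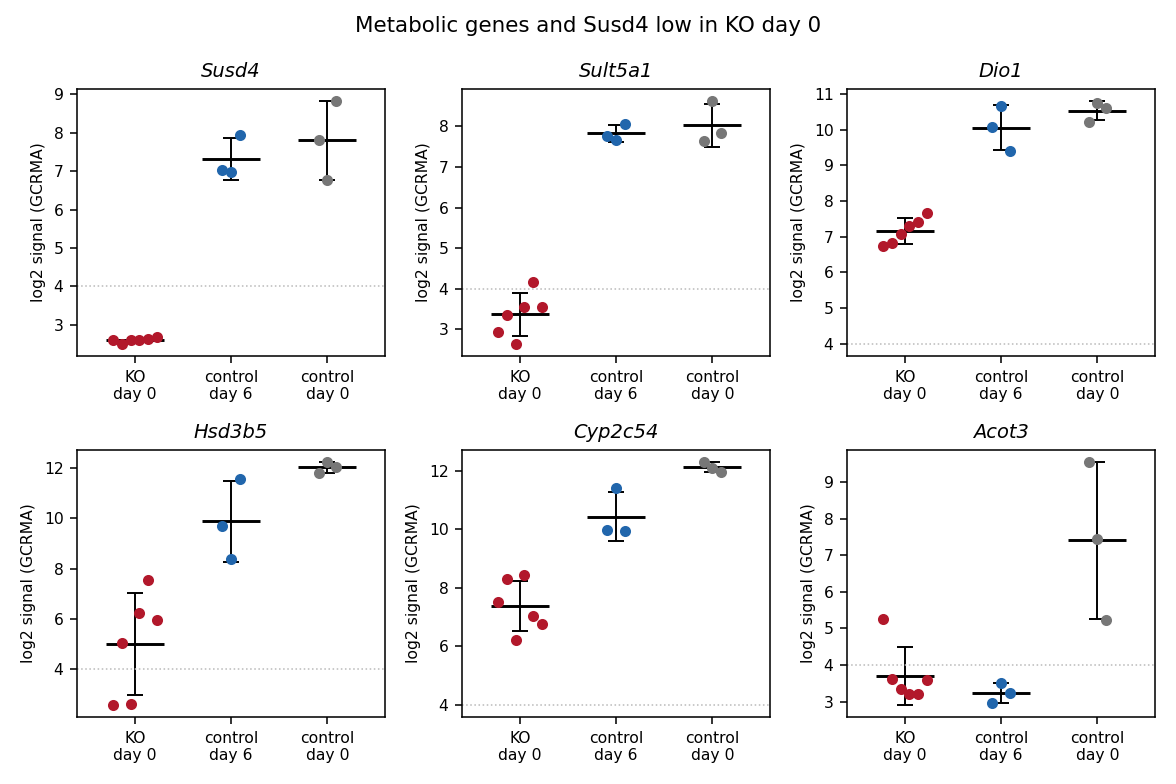
Log2 signal in each liver for 6 genes low in KO day 0; points are mice, black lines are means, bars are SD, and the dotted line marks log2 4. Susd4, Sult5a1 and Dio1 are low in KO day 0 alone, Hsd3b5 and Cyp2c54 are in between in control day 6, and Acot3 is low in both KO day 0 and control day 6.

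Calls among bile acid genes lay in KO day 0 livers. Of 25 tested bile acid synthesis and transport genes, Abcb1a and Abcb1b were higher and the targeted gene Abcb4 lower in KO day 0 than in control day 6. Of all tested genes 2.13% were higher and 1.38% lower there. Relative to control day 0 there were 3 higher and 7 lower genes in KO day 0, against 6.79% and 2.87% of all tested genes. None was called in control day 6 against control day 0. The 7 became 3 without control day 0 mouse 265 or 303. Abcb1b, a multidrug exporter of the same family as Abcb4, lay between 7.26 and 7.9 in KO day 0, was 4.16, 4.23 and 4.96 in control day 6 and 3.66, 4.08 and 3.13 in control day 0. KO day 0 livers stood well apart, 3.09 ± 0.40 above control day 6 (adjusted p = 0.000113) and 3.91 ± 0.40 above control day 0 (adjusted p = 3.18e-06). Abcb1a, its close relative, was 1.65 ± 0.38 above control day 6 (adjusted p = 0.0167), a call lost without control day 6 mouse 303 (0.094); signal from near-identical sequence in the 2 genes was not separated here.

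The chaperone, glutathione and fatty acid synthesis lists gave 1 call each in KO day 0 against control day 6, of 25 or 26 tested genes. That is near the 3.51% of all tested genes called. Lpl, lipoprotein lipase, which adult hepatocytes hardly express, was 9.05 to 11.6 in KO day 0, 6.97, 7.86 and 9.61 in control day 6 and 3.89, 6.17 and 6.25 in control day 0. It was 4.96 ± 0.68 above control day 0 in KO day 0 (adjusted p = 7.53e-05), and neither 2.71 ± 0.78 in control day 6 against control day 0 (adjusted p = 0.0674) nor 2.25 ± 0.68 in KO day 0 against control day 6 (adjusted p = 0.0751) passed. The first of these passed without control day 6 mouse 303 (0.0372), the second without mouse 393 (0.0286) or KO day 0 mouse 337 (0.0496). Of 25 tested chaperone and unfolded protein response genes, Herpud1, a factor in the disposal of misfolded proteins, was 1.22 ± 0.25 higher in KO day 0 than in control day 6 (adjusted p = 0.00786). KO day 0 livers, at 11.24 to 12.14, overlapped control day 0 livers, at 11.23 to 12.1, and control day 6 livers were lower, at 11.15, 10.24 and 10.21. The Herpud1 call was lost without mouse 392 (0.0737) or 393 (0.0537). Means of the chaperone list minus the control day 0 mean split the KO day 0 livers. They were 0.017, −0.008 and 0.049 in mice 250, 254 and 258, sampled again on day 2. They were 0.747, 0.659 and 0.684 in mice 312, 332 and 337, sampled again on day 6. Control day 6 livers lay between −0.303 and 0.198. The count of chaperone genes higher in KO day 0 than in control day 6 ran from 0 to 6 over the alternatives. Means of the endothelial list (0.127 to 0.19 and 0.469 to 0.655) and sex-biased list (−2.229 to −1.167 and −1.098 to −0.887) separated the same mice. Means of the mitosis and extracellular matrix lists did not, and the cause was not tested.

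Gsta2, a glutathione transferase, was the 1 called of 25 tested glutathione and NRF2 genes. It lay between 11.37 and 13.24 in KO day 0, was 8.75, 9.51 and 12.61 in control day 6 and 12.4, 12.09 and 11.82 in control day 0, a difference of 2.42 ± 0.63 (adjusted p = 0.0388) that was lost without control day 6 mouse 303 (0.189) or 392 (0.229), without any 1 control day 0 mouse (0.0507 to 0.0525) and without any KO day 0 mouse but 258 (0.0604 to 0.0791). Asns, asparagine synthetase, was the 1 lower of 17 tested urea cycle and amino acid genes, against 1.38% of all tested genes. It was at 2.61 to 3.66 in KO day 0, 4.82, 7.49 and 3.37 in control day 6 and 2.87 to 2.96 in control day 0. Its difference of −2.31 ± 0.60 (adjusted p = 0.0384) was lost without control day 6 mouse 392 (0.294) or 303 (0.0563), any 1 control day 0 mouse (0.0507 to 0.0517) or any KO day 0 mouse but 258 (0.0621 to 0.0704).

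The remaining lists held at most 1 call each in KO day 0 against control day 6, where 3.51% of all tested genes were called. No member was called there among 11 tested chemokines, 8 antigen presentation genes, 2 lymphocyte genes, 2 mesothelial genes and 1 erythroid gene. Of 16 lymphocyte genes on the array 14 had too little signal to test. Of 26 tested fatty acid synthesis and storage genes the 1 called was Cd36, the fatty acid transporter given above. The 1 tested pancreas gene was Cela1, a serine protease, at 7.67 to 8.59 in KO day 0, 8.73, 10.22 and 10.62 in control day 6 and 10.29, 10.56 and 10.42 in control day 0. It was 1.76 ± 0.42 lower than in control day 6 (adjusted p = 0.0243), lost without mouse 392 (0.149) or 393 (0.145), and 2.33 ± 0.42 lower than in control day 0 (adjusted p = 0.00128).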

How the data were processed

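Livers of 21 samples were each measured on 1 Affymetrix mouse array, and the values deposited by the authors are log2 signals made with GCRMA, per the submitters' processing notes. No version is given there. Arrays were grouped by their labels, and all replicates are separate mice. Of 22690 probe sets, 64 array controls, 691 with several gene symbols and 1555 with none were left out. Symbols of 20351 of 20380 probe sets matched RefSeq (GRCm38.p6). Each of 12393 genes was represented by the probe set with the highest mean over all arrays, and 7320 genes above log2 4 on at least 3 arrays were tested. limma 3.58.1 in R 4.3.3 fitted 1 model of all 6 groups (15 residual degrees of freedom), with empirical Bayes variances and two-sided Benjamini-Hochberg adjusted p under 0.05 over all tested genes. Errors on differences are standard errors and intervals are 95%. The number of arrays limits the precision. The fit was tested on simulated data. Plots used matplotlib 3.10.9 and Python 3.11.15.

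Genes were described in 36 lists, of whose 765 genes 678 were on the array and 538 were tested. The comparison, lists and named genes were chosen with earlier results of these data known. Genes named were drawn from Abcb4, the largest rises and falls of each comparison, and up to 4 members per list with the largest change past the threshold (the smallest p where none passed). Further sources were 27 set genes and cell type markers. Not all of them are given here. Met, Cd68, Cyp7a1 and Cyp2b10 of the set genes and Cd5l, Csf1r, Krt7 and Epcam of the markers are among those left out. Bgn, Dcn, Nid1, Hmgb2, Smc2, Lig1, Rfc5, Ifi47, Psmb8 and Psmb9 are further called list members, named after their values were seen. Alternatives were no filter or one at log2 6, averaged probe sets, quantile normalization, centring, and limma's trend and robust options. Others were a fit of only the 3 groups, the mouse as a random block, and 3 KO day 0 mice at a time. Arrays whose 3' and 5' Gapdh signals differed by over 1 were left out together (KO day 0 mouse 337 and control day 2 mice 263 and 265). Each array of the 3 groups was also left out in turn.

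Some mice gave a sample on 2 days, so the pairing comes from the animals in the labels. Over 9 such pairs of one mouse, deviations from the group means correlated between −0.0568 and 0.303 (median 0.119, 5 above 0.1), and the block's consensus correlation was 0.108. Between the groups compared here the pairing touched mouse 303 alone.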

Additional observations from a re-analysis of the deposited data

Results flagged for a closer look

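Within the 6 KO day 0 livers 120 genes were examined for a liver far from the others, by the gap to its nearest neighbour as a share of the whole range; chance flags about 1 in 20 such groups, and 16 genes were flagged. Mouse 258 held 10 of them. It was highest for Col1a1 (9.90), Col3a1 (12.27), Acta2 (6.32), Timp1 (5.82), Prtn3 (7.65), Apcs (14.06), Asns (3.66) and Gipc2 (7.91), and lowest for Gsta2 (11.37) and Reln (9.06). Mouse 332 was highest for Top2a (3.97), Pbk (5.04) and Btg2 (10.95). Mouse 254 was lowest for Fen1 (6.85) and highest for Rbl1 (4.60), and mouse 250 was highest for Acot3 (5.26). Of these genes, Timp1 encodes an inhibitor of matrix proteases, Gipc2 a PDZ domain adaptor and Btg2 an antiproliferative target of p53. The calls of KO day 0 against control day 6 for Prtn3, Apcs, Reln and Gipc2 held without mouse 258, and Acta2, Col1a1, Col3a1 and Timp1 were called neither with it nor without it.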

How the results depend on the processing

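Directions were stable for named genes that passed, and many thresholds were not. For KO day 0 against control day 6, 83 of 118 named genes were called; 39 stayed called under every alternative run, 44 were lost under at least 1, none reversed, and 13 uncalled genes passed under at least 1. For KO day 0 against control day 0, 59 of 77 called genes stayed called throughout, and for control day 6 against control day 0, 20 of 46. Cdkn1a, which was not called, reversed to −0.071 without KO day 0 mouse 258 and to −0.700 without control day 6 mouse 303, the lowest value without 1 array, where the highest was 0.995. Of the named calls of KO day 0 against control day 6, 27 were lost with the 3 KO day 0 mice sampled again on day 2 (adjusted p = 0.0531 to 0.252), 30 with the 3 sampled again on day 6 (0.0511 to 0.288), and 23 with no filter (0.0505 to 0.1), settings with fewer arrays or more genes tested. Leaving out the arrays of high Gapdh difference ended 7 (0.0539 to 0.0751), and the replicate block 2, Hsd3b5 (0.051) and Rbl1 (0.0518), while it brought Col3a1 past the threshold (0.0488).

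Leaving out 1 array moved the count of KO day 0 against control day 6 between 146 and 305 genes (97 to 177 higher, 49 to 128 lower), of KO day 0 against control day 0 between 357 and 735 (277 to 519 higher, 80 to 216 lower), and of control day 6 against control day 0 between 54 and 298 (45 to 246 higher, 8 to 73 lower). The share of higher genes in KO day 0 against control day 6 was 60.7%, and it was 49.8% with centred arrays (144 higher, 145 lower), 51.6% with quantile normalization (145 higher, 136 lower) and 48.1% without control day 6 mouse 393 (115 higher, 124 lower). For KO day 0 against control day 0 it was 70.3%, and 53.1% with centred arrays (381 higher, 337 lower), where the median of all genes moved by −0.137. Lower genes in KO day 0 against control day 0 also numbered 321 in a fit of only the 3 groups and 341 without the arrays of high Gapdh difference, which gave 89 lower genes in control day 6 against control day 0. Without those arrays, KO day 0 mouse 337 and control day 2 mice 263 and 265, the 3 comparisons held 309, 885 and 296 genes.

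With 3 KO day 0 mice, those sampled again on day 2, KO day 0 differed from control day 6 in 143 genes (92 higher, 51 lower) and from control day 0 in 440 (324 higher, 116 lower). With the 3 sampled again on day 6 it differed from control day 6 in 182 genes (121 higher, 61 lower), and from control day 0 in 446 genes, 108 of them lower. The mouse as a random replicate block gave 256, 720 and 241 genes in the 3 comparisons. Without single arrays the median absolute difference of group means ran between 0.230 and 0.2717 for KO day 0 and control day 6, 0.254 and 0.285 for KO day 0 and control day 0, and 0.2583 and 0.2992 for control day 6 and control day 0. The causes of these shifts were not tested. Signal near background limits differences for 133 tested genes at or under log2 4 on every KO day 0 array, 259 on every control day 6 array and 449 on every control day 0 array.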

Other observations

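Several large differences lay outside the gene groups described above. Cnmd, the gene of chondromodulin, a cartilage protein that inhibits vessel growth, lay between 2.7 and 3.42 (median 2.955) in KO day 0 livers, was 5.58, 3.45 and 6.63 in control day 6 mice 303, 392 and 393, and was 8.32, 8.69 and 8.78 in control day 0. The groups were ordered without overlap, KO day 0 at 2.24 ± 0.54 below control day 6 (adjusted p = 0.0252, lost without control day 6 mouse 303, 0.0826, or 393, 0.173) and 5.62 ± 0.54 below control day 0 (adjusted p = 1.84e-06). Control day 6 was 3.38 ± 0.62 below control day 0 (adjusted p = 0.00749). Dct, an enzyme of melanin synthesis, lay between 1.96 and 2.01 in KO day 0, was 4.6, 3.18 and 7.65 in control day 6 and 6.36, 6.25 and 5.86 in control day 0. It was near background in every KO day 0 liver, at least 3.16 ± 0.57 below control day 6 (adjusted p = 0.00298).

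Pls1, an actin-bundling protein of microvilli, Mapt, the microtubule protein tau, and Gipc2 were higher in KO day 0 than in control day 6 by 3.64 ± 0.45, 3.50 ± 0.55 and 3.35 ± 0.26 (adjusted p = 8.24e-05, 0.000844 and 1.85e-07). Of the 15 largest rises, 5 lie on chromosome 9 (Casp12, Tinag, Plet1, Mmp12 and Pls1). Over all 257 called genes, in both directions, the share on chromosome 9 was 5.84%, against 5.6% of tested genes. Of the 15 called genes on chromosome 9, 14 were higher in KO day 0, against 156 of all 257 called genes. Other chromosomes varied as well. All called genes were higher on chromosomes 13 and X (9 of 9 and 5 of 5), and fewer were on chromosomes 4 and 19 (3 of 10 and 2 of 8). Chromosome 2 held 10.5% of the calls, against 7.73% of tested genes. The part of the strain background in these values was not tested.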
